A study of Mus musculus with 12 samples.

Results

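The basal transcriptome of CT26 was described from the 3 libraries of cells that received no treatment, out of 12 libraries in the series. The members were chosen by the treatment label alone, and all 3 are labelled as biological replicates. CT26 is a transplantable colon carcinoma line of the BALB/c mouse, grown here as a cell culture in RPMI-1640 with fetal calf serum. The other 9 libraries, from the same line after CX3CL1, IFN-γ or both, form 3 further groups and were not compared here. Levels are in TPM (transcripts per 1000000), a share of the library corrected for transcript length, so that genes can be set beside each other. Because a culture was sequenced in bulk, fewer cells of a type and less RNA per cell cannot be told apart.

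Carcinoma cells start from an epithelium, which holds together through E-cadherin, claudins and paired keratins. In an epithelial to mesenchymal transition, these genes are turned down while vimentin, N-cadherin, fibrillar collagens and the SNAIL, ZEB and TWIST factors are turned up. Cancer cells also carry a set of growth factor receptors and release ligands and matrix that act on themselves and on the stroma and leukocytes around them.

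The table held 23610 usable symbols, written in capitals, of which 10469 (44.3%) reached 1 TPM in all 3 libraries and 8429 (35.7%) were listed at 0 in all 3. Per library, 10639 ± 68.4 symbols (SD, n = 3) reached 1 TPM and 1760 ± 51.3 reached 100 TPM. Symbols that reached 1 TPM in all 3 libraries had a median of 27.6 TPM. Of protein-coding symbols, 49.0% reached 1 TPM in all 3. Counts of listed genes below are to be set beside this share and the 44.3% of all symbols. RNA was concentrated in few genes, since the 100 most abundant symbols held 31.7% ± 1.31 of all TPM (SD, n = 3) and 374 symbols held 50% of it.

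EEF1A1, which delivers aminoacyl-tRNA to the ribosome (mm10 chr9:78478449-78489151), was the most abundant symbol, with 10862, 11870.2 and 12827 TPM in replicates 1, 2 and 3. LGALS1, the secreted lectin galectin-1 (chr15:78926725-78930465), followed with 9036, 10490.0 and 11699 TPM. ACTB, cytoplasmic actin, ranked 4 with 8234, 7538 and 7475 TPM. Of the 25 most abundant symbols, 15 were cytosolic ribosomal protein genes, led by RPS26 at a mean of 8287 TPM, RPL35 at 7431, RPL32 at 6921, RPLP1 at 6601 and RPL41 at 6067. The other members of the 25 were the iron store FTL1 at 5768 TPM, the chaperone HSP90AB1 at 5415, TPT1 at 4833, the calcium-binding S100A4 at 5652 and S100A11 at 4501, the intermediate filament VIM at 4174, and RN45S, the ribosomal RNA precursor, at 5583. The order inside this set was loose, because the ranges of the 3 libraries overlapped for 24 of 24 neighbouring ranks.

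**Figure D1:**
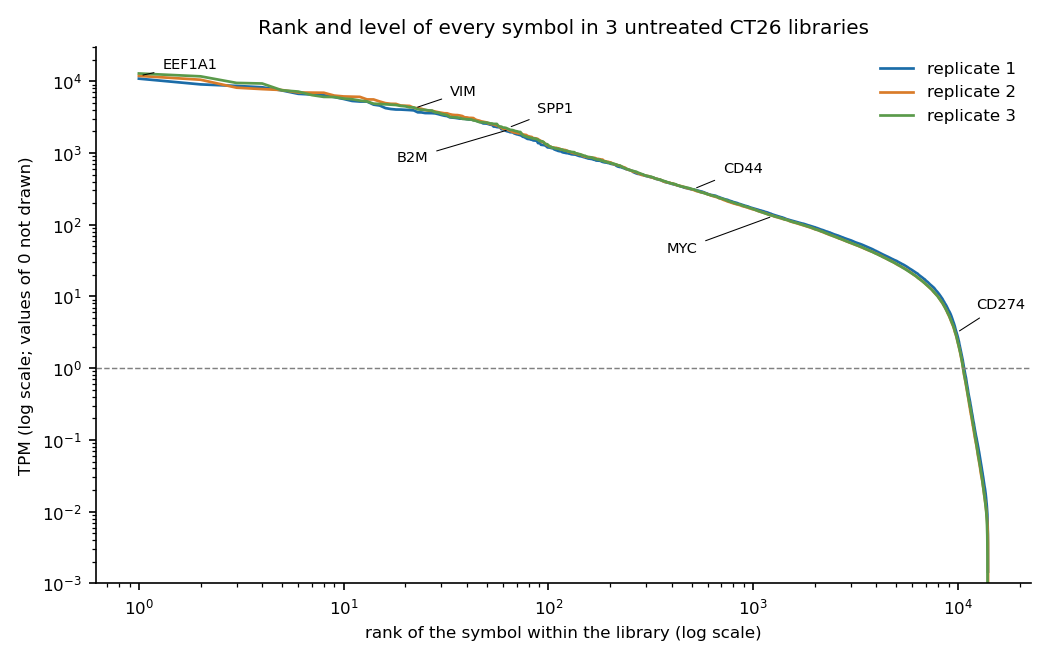
TPM of each symbol (vertical axis, log scale) against its rank in the library (horizontal axis, log scale), with 1 line per untreated replicate and values of 0 left out. The 3 lines run together from EEF1A1 at rank 1 past VIM at rank 22 and MYC at rank 1260, and fall steeply after the dashed line at 1 TPM.

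By class, 78 of 79 cytosolic ribosomal protein genes reached 1 TPM in all 3 libraries and together held 17.3%, 20.0% and 19.5% of TPM in replicates 1, 2 and 3. Chaperones and folding enzymes held 3.49% ± 0.419 (SD, n = 3), oxidative phosphorylation subunits encoded in the nucleus 3.13% ± 0.276, translation factors 2.94% ± 0.149 and the actin cytoskeleton 2.30% ± 0.0589. Glycolysis held 1.09% ± 0.0565, led by GAPDH at 2332, 2822 and 2625 TPM and by LDHA, which makes lactate, at 1940.4, 2169 and 2106 TPM. The table had no rows for genes encoded by the mitochondrial genome, so their share was not analysed here.

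Promoter sequence was then set beside the level of each gene. RefSeq promoters (GRCm38.p6, 250 bases before to 50 after the annotated start) matched 18186 symbols (77.0%), and where a gene had several starts the first listed was used. TATAAA lying between 40 and 15 bases before the start, on the strand of the gene, was found in 2.66% of all these promoters and in 3 of the 100 above 1000 TPM, a share near that of all promoters. These 3 genes, S100A4, VIM and PPIA (the prolyl isomerase cyclophilin A), are shown with the 100 bases before the start, with TATAAA in capitals.
S100A4, chr3:90603670-90603769, plus strand: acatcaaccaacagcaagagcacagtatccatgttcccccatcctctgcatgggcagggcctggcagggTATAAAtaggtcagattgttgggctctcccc
VIM, chr2:13574211-13574310, plus strand: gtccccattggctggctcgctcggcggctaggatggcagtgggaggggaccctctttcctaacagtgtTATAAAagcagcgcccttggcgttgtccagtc
PPIA, chr11:6415767-6415866, plus strand: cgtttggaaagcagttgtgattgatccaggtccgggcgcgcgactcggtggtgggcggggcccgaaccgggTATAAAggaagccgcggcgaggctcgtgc

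Transcripts of the translation machinery often begin with a C followed by pyrimidines, the mark of 5′ terminal oligopyrimidine (TOP) mRNAs, whose translation follows nutrient signals. A C with 4 further pyrimidines at the annotated start was found in 2.33% of all promoters, in 10 of the 100 genes above 1000 TPM and in 13 of the 58 ribosomal protein genes with a promoter (22.4%). Of the 10 above 1000 TPM, 8 were themselves ribosomal protein genes, so the 10 are not a feature of level apart from this class. The 4 most abundant ribosomal protein genes with this start are shown from 25 bases before the start. The 5 bases from the start on are in capitals.
RPL35, chr2:39005127-39005156, minus strand: ttgaggaagtcggccccgccctttcCTCTT
RPL28, chr7:4792940-4792969, plus strand: aggtgtcgtcccgcctctcgtgtctCTCTT
RPLP2, chr7:141447626-141447655, plus strand: ccccgcccactgcgtcagcgtcttcCTTTC
RPS10, chr17:27635240-27635269, minus strand: aagagacgctgcgccgcgcacgcccCTTCC

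The count of C followed by G in the 300 bases was larger in each higher class of level up to 1000 TPM. Its median was 3 in the 6420 promoters of symbols listed at 0 in all 3 libraries, 9 between 0.1 and 1 TPM (n = 1120), 18 between 1 and 10 TPM (n = 1966), 22 between 10 and 100 TPM (n = 5110) and 21 above 1000 TPM (n = 100). TATAAA went the other way, from 4.75% of the promoters of symbols at 0 to 0.763% between 10 and 100 TPM, before the 3% above 1000 TPM. Restricted to genes with 1 listed start, the medians were 3, 18 and 23 for symbols at 0, between 1 and 10 TPM and between 10 and 100 TPM. S100A4 stood outside this pattern with 2 such dinucleotides, VIM had 11, PPIA 43 and RPL35 27. Base composition and gene family are shared by many of these promoters, so the shares are descriptions across genes.

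**Figure D2:**
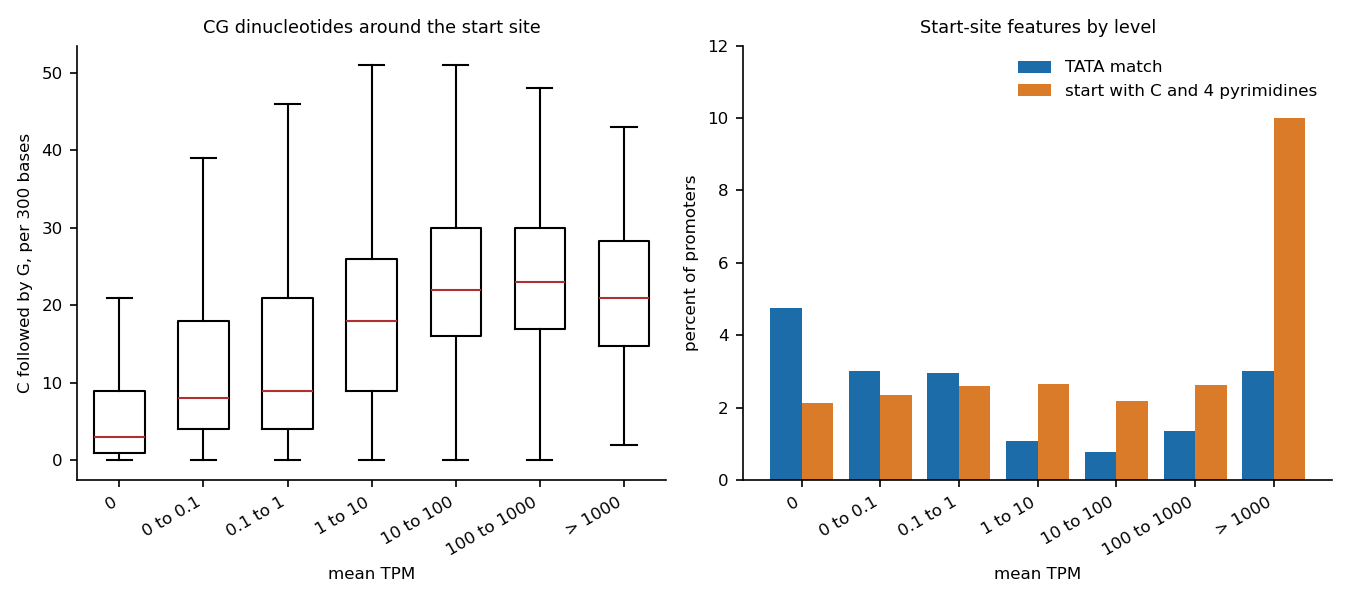
Left, count of C followed by G in 300 bases around the start (box, quartiles; line, median; whiskers, farthest value within 1.5 box lengths) by mean TPM over 3 libraries. Right, percent of promoters with a TATA match (blue) or a start of C with 4 pyrimidines (orange), where the latter stands at 10% above 1000 TPM and between 2.13% and 2.64% in every lower class. Of the 10 promoters with this start above 1000 TPM, 8 belong to ribosomal protein genes.

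Mesenchymal genes were more widely present than epithelial genes. Of 36 mesenchymal genes, 22 reached 1 TPM in all 3 libraries (61.1%), against 5 of 33 epithelial genes (15.2%) and 44.3% of all symbols. Of the epithelial genes, 11 were listed at 0 in every library, including EPCAM (chr17:87635979-87651129), the claudins CLDN3, CLDN4 and CLDN7, and the epithelial splicing regulator ESRP1. CDH1, which encodes E-cadherin (chr8:106603351-106670246), had 0.0367, 0.00831 and 0 TPM. These markers of an epithelium were at or near 0 in these libraries of a colon carcinoma line. The 5 epithelial genes that did reach 1 TPM were TJP1, KRT18, KRT20, JUP and LLGL2.

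VIM (chr2:13573927-13582826) had 4034, 4831 and 3658 TPM in replicates 1, 2 and 3. S100A4 (chr3:90603771-90606045), a motility-associated calcium-binding protein, had 3587, 6966 and 6404 TPM, the widest relative spread of any protein-coding gene among the 25 most abundant. CDH2, N-cadherin, had 76.2, 68.1 and 68.2 TPM. CDH2 lay far below VIM and S100A4, and it exceeded CDH1 by more than any replicate difference.

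The matrix members of the mesenchymal list were led by COL1A2 at a mean of 776 TPM, SPARC at 276 and FN1 at 273, while the partner chain COL1A1 stood at 74.2 ± 14.4 TPM (SD, n = 3). The transcription factors that drive the mesenchymal state were also present, with PRRX2 at 117 ± 2.78 TPM, TWIST2 at 73.9 ± 11.2, PRRX1 at 73.2 ± 13.1, TWIST1 at 62.6 ± 5.596, SNAI2 at 48.7 ± 9.13 and ZEB2 at 18.6 ± 3.19. Smooth muscle and fibroblast genes of the list were split. CALD1, the actin-binding caldesmon of smooth muscle and other contractile cells, had 746, 500 and 593 TPM, and the fibroblast genes COL3A1 at a mean of 10.2 TPM, PDGFRB at 7.45, FSTL1 at 4.24 and PDGFRA at 3.68 reached 1 TPM in all 3 libraries. ACTA2, smooth muscle actin, had 0.0222, 0 and 0.0169 TPM, and CNN1, THY1, LUM, POSTN, LOX and MYL9 were listed at 0, a value that in this table need not mean silence.

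Among the epithelial genes that reached 1 TPM, the junction scaffold TJP1 had 82.3 ± 9.52 TPM, KRT18 45.3 ± 10.1 and KRT20 12.8 ± 3.404. The others were JUP, which is plakoglobin, at 4.25 ± 0.623 TPM and the polarity gene LLGL2 at 4.09 ± 0.0659. Keratins polymerise as pairs of an acidic and a basic chain, and the usual partner of KRT18 is KRT8. KRT18 (chr15:102028180-102032027) had 34.1, 48.3 and 53.6 TPM, whereas KRT8 on the same chromosome (chr15:101996698-102004482) had 0.234, 0.364 and 0.229 TPM. The only other keratins of 51 at 1 TPM in all 3 libraries were KRT80 at 42.998 ± 4.12, KRT20 and KRT10 at 1.59 ± 0.344, and 31 keratins were listed at 0 throughout.

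**Figure D3:**
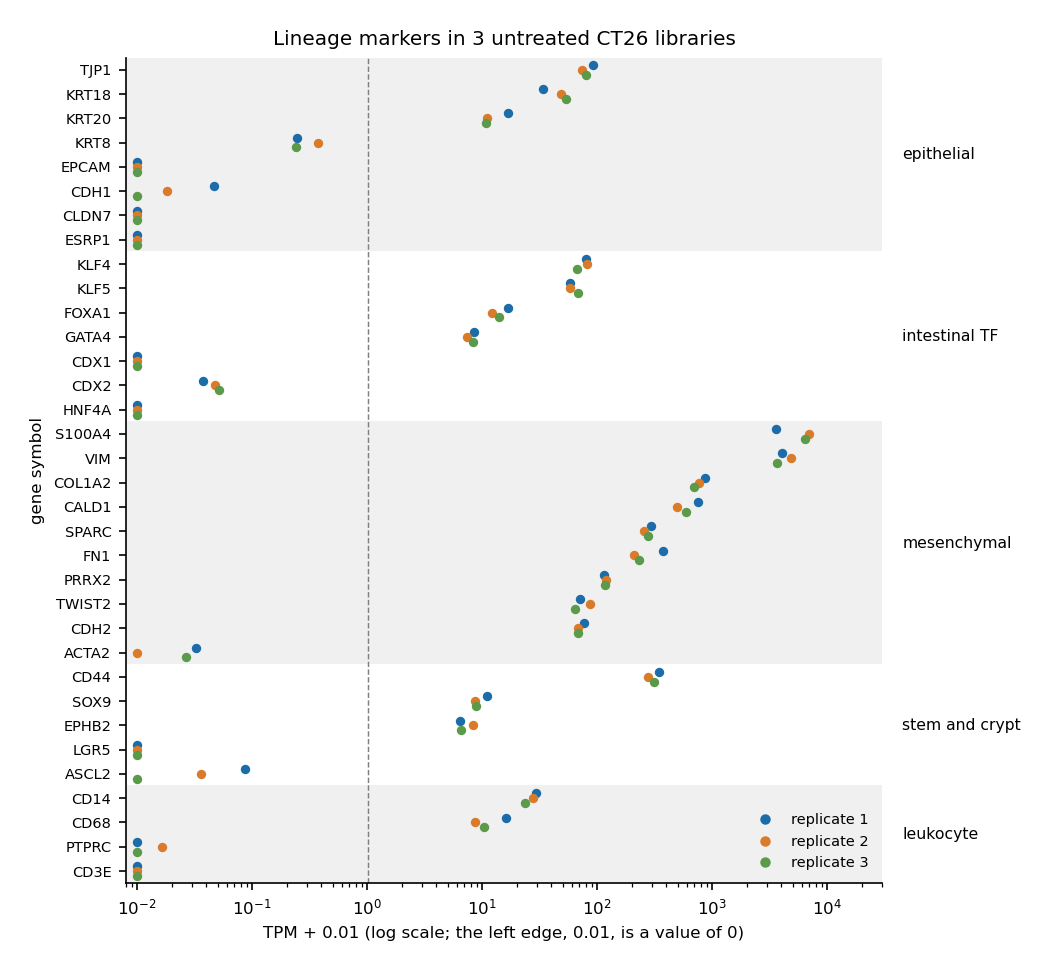
TPM + 0.01 (horizontal axis, log scale) of lineage markers in untreated replicates 1 (blue), 2 (orange) and 3 (green), with the dashed line at 1 TPM. S100A4, VIM and COL1A2 lie between 694 and 6966 TPM, while EPCAM, CLDN7, ESRP1, CDX1, HNF4A and LGR5 sit at the left edge, a value of 0, in every library.

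Genes that give intestinal cells their identity were mostly below 1 TPM. Of 20 intestinal transcription factors, 6 reached 1 TPM in all 3 libraries and 11 were listed at 0, among them CDX1, HNF4A and ATOH1, the switch to secretory cells. CDX2, the master regulator of hindgut epithelium, had 0.0273, 0.0371 and 0.0415 TPM. Those present included KLF4 at 76.6 ± 8.38 TPM, KLF5 at 61.4 ± 5.32, FOXA1 at 14.4 ± 2.26, SOX9 at 9.45 ± 1.32 and GATA4 at 7.999 ± 0.602. KLF4 and FOXA1 act in many other tissues as well.

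Differentiated products were rarer still. No gene of 15 for goblet, Paneth, enteroendocrine or tuft cells reached 1 TPM in all 3 libraries, and 3 of 22 for absorptive cells did so, namely KRT20, the cadherin CDH17 at 1.93 ± 0.418 TPM and the water channel AQP8 at 1.66 ± 0.301 TPM. Of 15 stem and crypt genes, 7 reached it, led by CD44 at 345, 278 and 310.3 TPM, CDCA7 at 148 ± 12.6 and LRIG1 at 54.9 ± 2.91. LGR5, OLFM4 and SMOC2, which mark crypt base stem cells, were at 0 in every library.

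Lists of markers of other cell types had few members present. Leukocyte genes reached 1 TPM in all 3 libraries in 2 of 27 cases, CD14 at 26.9 ± 2.92 TPM and CD68 at 11.7 ± 3.95, while CD3E, TYROBP and ADGRE1 were at 0. The leukocyte list summed to 49.02, 39.03 and 37.6 TPM in replicates 1, 2 and 3. Endothelial genes did so in 1 of 16 cases, ENG at 2.03 ± 0.0764 TPM, with CDH5, KDR and ERG at 0. Genes outside this list that endothelium also uses were present, namely CD34 at 661, 698 and 650 TPM, VCAM1 at 126, 109 and 104 TPM, SELE at 26.4, 32.5 and 29.2 TPM and SELP at 14.9, 16.8 and 12.7 TPM, and these 4 were chosen after their values were seen. Neural genes did so in 2 of 12 cases, the intermediate filament NES at 45.4 ± 9.22 TPM and TUBB3 at 15.3 ± 3.25, and muscle genes in 2 of 10, TNNT2 at 52.5 ± 7.44 TPM and DES at 2.27 ± 0.911.

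Homeobox genes of the HOX clusters keep a record of the position along the body axis from which a cell came. Of 39 HOX genes, 13 reached 1 TPM in all 3 libraries and 16 were listed at 0. The highest was HOXC6 at 36.02, 25.4 and 33.5 TPM, then HOXA9 at 22.6, 20.3 and 22.3 TPM, HOXD8 at 14.5, 15.4 and 13.6 TPM and HOXA5 at 11.1, 10.9 and 8.73 TPM. The ranges of these 4 genes did not overlap, whereas those of the next pairs, HOXA5 with HOXA6 and HOXA6 with HOXA10, did. Of the most posterior paralogs, HOXB13 and HOXC13 were at 0, HOXA13 had 0.942, 0.202 and 0.414 TPM and HOXD13 had 0.0231, 0.0157 and 0.0175 TPM. HOXD11 and HOXD12 were at 0, as were HOXC8 and HOXC9 beside HOXC6 in the C cluster.

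Cell cycle genes were present throughout. All 25 proliferation genes reached 1 TPM in all 3 libraries, led by UBE2C, which the anaphase-promoting complex uses to mark cyclins, at 827, 955 and 1031 TPM and by the replication clamp PCNA at 954, 891 and 803 TPM. Of 31 oncogenes, 27 reached it. CDK4 had 781, 873 and 941 TPM and its partner CCND1, cyclin D1, had 619, 625 and 566 TPM, both above every other oncogene of the list in all libraries. MYC had 117, 129.7 and 152 TPM and the GTPase NRAS 158, 137 and 133 TPM. EGFR, ERBB3, MYCN and MYCL were the 4 below 1 TPM in at least 1 library.

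Tumor suppressors were as widely present, with 30 of 34 at 1 TPM in all 3 libraries. TRP53, which encodes p53 (chr11:69580359-69591873), had 202, 237 and 229 TPM, and 17 of 20 p53 target genes reached 1 TPM, among them BAX at 400.2 ± 6.66 TPM, CDKN1A at 299 ± 63.2 and MDM2 at 110.4 ± 20.4. The p53 targets PMAIP1 and PERP were at 0. APC, which restrains Wnt signalling and is often lost in colon carcinoma, had 20.9, 15.9 and 17.6 TPM. Of 15 Wnt target genes only 5 reached 1 TPM in all 3 libraries, CCND1, MYC, APCDD1, ZNRF3 and LEF1, while AXIN2, the most general feedback target, had 0.243, 0.0954 and 0.136 TPM and NOTUM, SP5 and DKK1 were at 0.

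The CDK inhibitors CDKN2A (chr4:89274471-89294653) and CDKN2B (chr4:89306299-89311039) were listed at 0 in all 3 libraries, as was FHIT on chromosome 14. The nearest protein-coding neighbour on the proximal side, the purine salvage enzyme MTAP (chr4:89137122-89181081), had 234, 250.3 and 249 TPM. Of 42 neighbours within 1 Mb of CDKN2A, 31 were at 0 in all 3 libraries and 5 reached 1 TPM, namely MTAP, KLHL9 at 53.9, 39.9 and 42.6 TPM, FOCAD at 14.3, 13.97 and 11.7 TPM, HACD4 and GM12602. Much of this interval is the type I interferon gene cluster. DNA copy number was not measured here.

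Among oncofetal and imprinted genes, 6 of 25 reached 1 TPM in all 3 libraries. HMGA2, a chromatin architect of embryonic mesenchyme, had 312, 252 and 309 TPM, and the mRNA-binding IGF2BP2 had 42.2 ± 3.24 and IGF2BP1 16.7 ± 1.09 TPM. The imprinted IGF2, H19, DLK1 and MEG3 were at 0. TERT, the catalytic subunit of telomerase, had 1.26, 1.12 and 1.06 TPM.

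Receptor tyrosine kinases pass signals of growth factors and matrix into the cell. In all 3 libraries 20 of 58 (34.5%) reached 1 TPM, against 44.3% of all symbols. The GAS6 receptor AXL (chr7:25757273-25788705) had 319.9, 385 and 308 TPM and did not overlap with any other member. EPHA2 had 89.6, 103 and 99.7 TPM, DDR2, a collagen receptor, 94.97, 102 and 87.99 TPM, RYK 83.95, 83.4 and 80.2 TPM and MET 67.9, 68.3 and 61.1 TPM, where EPHA2 and DDR2 overlapped and DDR2, RYK and MET did not. Lower members included IGF1R at 28.5 ± 4.83 TPM, EPHB4 at 28.4 ± 2.597, ERBB2 at 15.4 ± 1.85 and FGFR1 at 10.1 ± 2.86. EGFR (chr11:16752203-16918158) had 0, 0.005598 and 0 TPM, ERBB3 had 0.932, 0.633 and 0.701 TPM, and 16 members, including KIT, RET, KDR, NTRK2 and NTRK3, were at 0.

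Cytokine receptors reached 1 TPM in all 3 libraries in 21 of 56 cases (37.5%), against 44.3% of all symbols. The shared signal chain IL6ST led on average, at 86.6, 55.6 and 61.1 TPM. The next were IL18RAP at 58.7 ± 3.45 TPM, IL1RL1, the receptor for IL-33, at 45.5 ± 14.1 and GHR at 37.1 ± 8.91. Both chains of the IFN-γ receptor were present, IFNGR1 at 28.02, 27.1 and 24.5 TPM and IFNGR2 at 39.3, 26.5 and 30.2 TPM. Neighbours in this order overlapped from IL6ST down to IFNGR1, so no rank among these 6 was separated from the next.

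Transcripts of chemokine receptors were almost absent, with 2 of 24 (8.33%) at 1 TPM in all 3 libraries. These were the scavenger ACKR3 at 9.54, 7.06 and 6.905 TPM and CCR1 at 2.95, 1.71 and 1.45 TPM. CX3CR1 (chr9:119901616-120069879), the receptor on which the study turns, was the next in order with 0.0439, 0.0596 and 0.122 TPM. Its ligand CX3CL1 had 0.0178, 0 and 0 TPM. Values this small cannot be told from background here, because TPM give no read counts. CXCR4 and CXCR3 were at 0. By flow cytometry the paper reports high CX3CR1 on cultured CT26 cells. It also reports migration of CT26 toward CX3CL1 that its CX3CR1 antibody reduced. In CT26 cells given CX3CL1, the paper further reports that the antibody lowered CXCL1 and M-CSF secretion and IL-6 and NLRP3 mRNA. The paper found no expression of CX3CL1 by CT26. The values here are RNA alone, and protein on the cell surface was not measured.

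The TNF receptor superfamily reached 1 TPM in 13 of 28 cases and was led by the receptor for TWEAK, TNFRSF12A (chr17:23675445-23677468), with 577, 571 and 582 TPM. LTBR at 105 ± 5.27 TPM and the main TNF receptor, TNFRSF1A, at 95.3 ± 4.32 followed. Of 26 integrins 9 reached it, led by ITGB1, the common beta chain, at 498, 437 and 434 TPM, ITGA6 of the laminin receptor at 154 ± 14.2 TPM and ITGB7 at 114 ± 36.2, and ITGAV, ITGB5, ITGA3 and ITGA5 lay between 36.8 and 75.5 TPM on average. TGF-beta family receptors were broadly present, at 11 of 14, with BMPR1A at 48.2 ± 4.82 TPM and TGFBR2 at 39.1 ± 5.75. Wnt receptors reached 1 TPM in 9 of 15 cases, led by LRP6 at 28.6 ± 4.84 TPM, and of 9 Notch receptors and ligands only NOTCH2 at 32.8 ± 2.97 and NOTCH1 at 6.195 ± 0.735 TPM did so, with no ligand among them.

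Secreted factors were sparse by number and dominated by a few abundant genes. Chemokines reached 1 TPM in all 3 libraries in 6 of 40 cases. CCL25 had 13.7, 13.2 and 17.8 TPM, CXCL10, an interferon-responsive ligand for T cells, 9.46, 11.7 and 14.4 TPM, CCL5 8.67, 6.48 and 7.55 TPM, CCL9 5.098 ± 0.821, CXCL1, a neutrophil attractant, 4.96 ± 1.51 and CCL17 3.01 ± 1.44. CCL2 reached 2.85 TPM in replicate 1 and only 0.669 and 0.374 TPM in the others, so it did not pass in all libraries. CXCL12, CXCL16, CXCL2 and CCL22 were at 0.

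Interleukins and hematopoietic cytokines reached it in 9 of 51 cases, led by MIF at 779.5, 943 and 784 TPM and by CSF1, the growth factor of macrophages, at 233, 212 and 230.3 TPM. KITL, stem cell factor, had 60.2 ± 13.7 TPM and IL34, LIF, CLCF1, FLT3L and IL11 lay between 5.32 and 7.67 TPM on average. IFNG, IL10, IL4 and CSF3 were at 0, and IL6 had a mean of 0.283 TPM. In the TNF superfamily TNFSF9, the ligand of 4-1BB, at 23.1 ± 4.69 TPM and TNFSF12, which is TWEAK, at 6.59 ± 0.877 were the 2 of 16 present.

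Growth factors reached 1 TPM in all 3 libraries in 24 of 68 cases (35.3%), against 44.3% of all symbols. HDGF was highest at 767, 854 and 822 TPM, then GRN, progranulin, at 194 ± 59.2, FGF7, a factor for epithelial cells, at 172, 79.4 and 89.1 TPM, and CYR61 at 103 ± 29.8. Angiogenic and platelet-derived factors were present together, VEGFB at 77.2 ± 6.48 TPM, VEGFA at 73.5 ± 5.93 and PDGFA at 53.03 ± 11.9. Of the EGF family, EREG had 54.5, 44.03 and 36.9 TPM, HBEGF 37.02, 32.3 and 38.3 TPM and AREG a mean of 10.3 TPM. TGF-beta family ligands reached it in 7 of 34 cases, with TGFB1 at 29.5 ± 3.73 TPM and INHBA at 19.7 ± 6.49, and Wnt ligands and modulators in 2 of 34, WNT10A at 4.42 ± 0.885 and WNT10B at 2.86 ± 0.234.

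Galectins held 1.12% ± 0.123 of TPM (SD, n = 3), most of it LGALS1, and collagens, laminins and glycoproteins 0.465% ± 0.0244. The matrix protease list held 0.269% ± 0.0235, most of it the cathepsin CTSL. The protease inhibitor list, which counts the collagen chaperone SERPINH1 as a member, held 0.259% ± 0.0237. SPP1, osteopontin (chr5:104435118-104441050), had 2138, 2374 and 2149 TPM, the highest of 80 collagens, laminins and glycoproteins, of which 30 reached 1 TPM in all 3 libraries. The basement membrane chains COL4A1 at 132 ± 9.14 TPM, LAMB1 at 121 ± 8.601 and LAMC1 at 108 ± 8.21 were also among the abundant members. Matrix proteases reached it in 17 of 64 cases, led by cathepsin L, CTSL, at 1682, 1514 and 1679 TPM, CTSD at 316 ± 64.5, CTSZ at 299.8 ± 20.2 and CTSB at 196 ± 30.1, and the membrane-bound MMP14 was next at 112 ± 10.3. Members of the protease inhibitor list reached it in 11 of 74 cases. The highest was SERPINH1 at 880.4 ± 111 TPM, a serpin by family that is also on the chaperone list. Below it stood SERPINB6A at 481 ± 47.1 TPM, CST3 at 476 ± 29.3 and TIMP1 at 339.8 ± 40.5. LGALS3 at 479.6 ± 65.2 TPM, LGALS9 at 129.7 ± 19.9 and LGALS7 at 118 ± 25.5 accompanied LGALS1 among the 5 of 9 galectins present, IGFBP4 and IGFBP6 were the 2 of 7 IGF-binding proteins, and the axon repellent SEMA3A was the highest semaphorin at 204 ± 33.2 TPM.

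Ligands and receptors were then read together in 71 known pairs. Both genes reached 1 TPM in all 3 libraries in 14 pairs, the ligand alone in 18, the receptor alone in 22 and neither in 17. The 14 included SPP1 with CD44, TNFSF12 with TNFRSF12A, COL1A1 with DDR2, COL4A1 with DDR1, TGFB1 and TGFB3 with TGFBR2, INHBA with ACVR2A, PDGFA and PDGFC with PDGFRA, EFNA1 with EPHA2, EFNB2 with EPHB4, SEMA3A with NRP1, PROS1 with TYRO3 and IL11 with its receptor. In SPP1 and CD44 the means were 2220 and 311 TPM, and in TNFSF12 and TNFRSF12A they were 6.59 and 577 TPM.

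Ligands without their receptor formed families. EREG at a mean of 45.1 TPM, HBEGF at 35.9, AREG at 10.3 and TGFA at 8.15 all bind EGFR, which had a mean of 0.00187 TPM. CSF1 and IL34 stood beside CSF1R at 0.0283, 0 and 0 TPM, FGF7 beside FGFR2 at 0.01002, 0 and 0 TPM, and KITL at 60.2 TPM and BDNF at 29.3 beside KIT and NTRK2 at 0. VEGFA lacked KDR, with its other paired receptor FLT1 at a mean of 0.56 TPM, and LIF lacked LIFR at this level. Only the listed pairs were read. NRP1, which can also bind VEGFA, was paired here with semaphorins and had a mean of 15.6 TPM.

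Receptors without their ligand were the mirror of this. AXL stood beside GAS6 at 0, 0 and 0.0167 TPM, MET beside HGF at 0, 0.00892 and 0 TPM, IL1RL1 beside IL33 at a mean of 0.0333 TPM, TNFRSF1A beside TNF at 0, and NOTCH2 and NOTCH1 beside JAG1 at 0. Ligands from serum or from other cells were not measured here. The CX3CL1 and CX3CR1 pair fell in the group where neither gene reached 1 TPM.

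**Figure D4:**
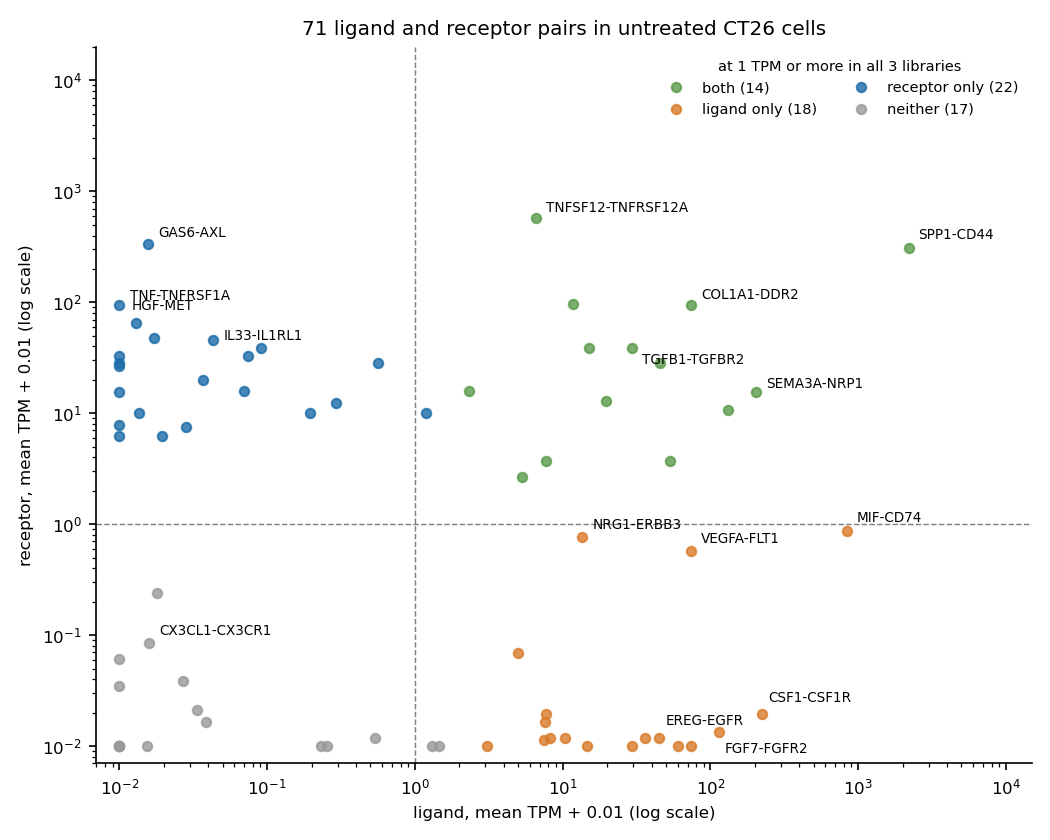
Mean TPM + 0.01 over 3 untreated libraries of the ligand (horizontal axis, log scale) and the receptor (vertical axis, log scale) in 71 pairs, coloured by which genes reached 1 TPM in all 3 libraries (dashed lines at 1). SPP1 and CD44 stand at the upper right with 2220 and 311 TPM, AXL with 337 TPM stands at the upper left, and EREG with EGFR lies along the lower edge.

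Genes through which tumor cells meet lymphocytes reached 1 TPM in all 3 libraries in 17 of 34 cases (50%). This was near the 49.0% of protein-coding symbols. B2M, the invariant chain of MHC class I, had 2994, 1457 and 1964 TPM, H2-K1 311, 212 and 231 TPM and H2-D1 195, 111 and 121 TPM, and all 3 were highest in replicate 1 and lowest in replicate 2. The peptide transporter TAP1 had 24.6, 15.1 and 17.7 TPM. CD274, which encodes PD-L1 (chr19:29367455-29388095), had 3.86, 1.99 and 3.38 TPM. PTGS2, the prostaglandin synthase COX-2, stood at 135 ± 30.5 TPM, CD47 at 103 ± 18.4 and CD80 at 14.7 ± 2.499, whereas the class II genes H2-AA and H2-AB1, their activator CIITA, PDCD1LG2, IDO1 and ARG1 were at 0.

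Replicate spread was small for most genes and unequal between libraries. Over the 10664 symbols whose mean reached 1 TPM, the median SD of log2(TPM + 1) was 0.14 and the median coefficient of variation 10.2%. By level, the median SD was 0.17 between 1 and 10 TPM (n = 2577), 0.13 between 10 and 100 TPM (n = 6335), 0.12 between 100 and 1000 TPM (n = 1622) and 0.14 above that (n = 130). Pearson's r of log2(TPM + 1) across these genes was 0.988 between replicates 1 and 2, 0.993 between 1 and 3 and 0.994 between 2 and 3, where genes are not independent replicates. No pair of libraries held an identical nonzero value.

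The libraries spanned at least 2-fold on the log2(TPM + 1) scale for 136 symbols (1.28%). Of these, 108 were highest in replicate 1 and 97 lowest in replicate 2. Without replicate 1 the count was 30 and without replicate 2 it was 48. Replicate 1 also stood higher across all genes, with a median deviation from the gene mean of 0.08 on the log2 scale against -0.04 in each of the others. Of the 10664 symbols, 58.2% were highest in replicate 1, 24.4% were highest in replicate 2, 19.9% were lowest in replicate 1 and 42.0% were lowest in replicate 2, and the list counts that follow are read against these shares.

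The most variable gene was AVIL, an actin-severing protein, at 62.4, 3.301 and 24.04 TPM in replicates 1, 2 and 3. LCN2, a siderophore-binding protein induced by inflammation, had 44.9, 3.62 and 19.3 TPM, the secreted carbonic anhydrase CAR6 198, 25.4 and 118 TPM and OGN, a matrix proteoglycan, 260.1, 36.4 and 81.2 TPM. These 4 shared one order, highest in replicate 1 and lowest in replicate 2. OSTN, CSN3, PLA2G2E, APOD and TAF7L completed the set in the same order with means between 2.41 and 15.8 TPM, and 1700124L16RIK ran against it with 0, 5.75 and 2.82 TPM. RN45S had a different order, 8597, 6134 and 2018 TPM, and the mitochondrial tRNA synthetase LARS2 shared it with 309.7, 245 and 140.1 TPM. RN45S is not polyadenylated, and what set its order across these mRNA libraries was not tested.

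Interferon-stimulated and hypoxia genes deviated further than the median gene. Of 38 interferon-stimulated genes whose mean reached 1 TPM, 31 were highest in replicate 1 and 37 lowest in replicate 2, and their median deviations were 0.35, -0.44 and 0.06 on the log2 scale. IRF7, the regulator of interferon genes, had 112, 21.6 and 43.7 TPM and BST2, tetherin, 778, 318 and 366 TPM. Of 18 hypoxia genes 14 were highest in replicate 1 and 10 lowest in replicate 2. Their median deviations were 0.37, -0.20 and -0.14, and BNIP3, a mitophagy receptor, had 218, 74.5 and 117 TPM. Growth factors, antigen presentation genes and matrix proteases also stood highest in replicate 1, at 0.26, 0.30 and 0.30.

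Other groups had the opposite order. Ribosomal protein genes were lowest in replicate 1 in 65 of 78 cases, with median deviations of -0.12, 0.10 and 0.04, and oxidative phosphorylation genes in 54 of 80. In the list of the integrated stress response and unfolded protein response, 13 of 21 genes were highest in replicate 2, among them ATF4 at 628, 1011 and 854 TPM and ASNS, asparagine synthetase, at 472, 666 and 536 TPM, while the endoplasmic reticulum chaperone HSPA5 in the same list had 2567, 1608 and 1961 TPM. The median deviation of the proliferation list was -0.04, 0.03 and -0.01 and that of the proteasome list -0.02, -0.01 and 0.02 in replicates 1, 2 and 3, so in replicate 1 both lay below the 0.08 of all symbols. Because TPM sum to the same total in each library, a class that takes a larger share lowers the others, and the part of this in the deviations was not tested.

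**Figure D5:**
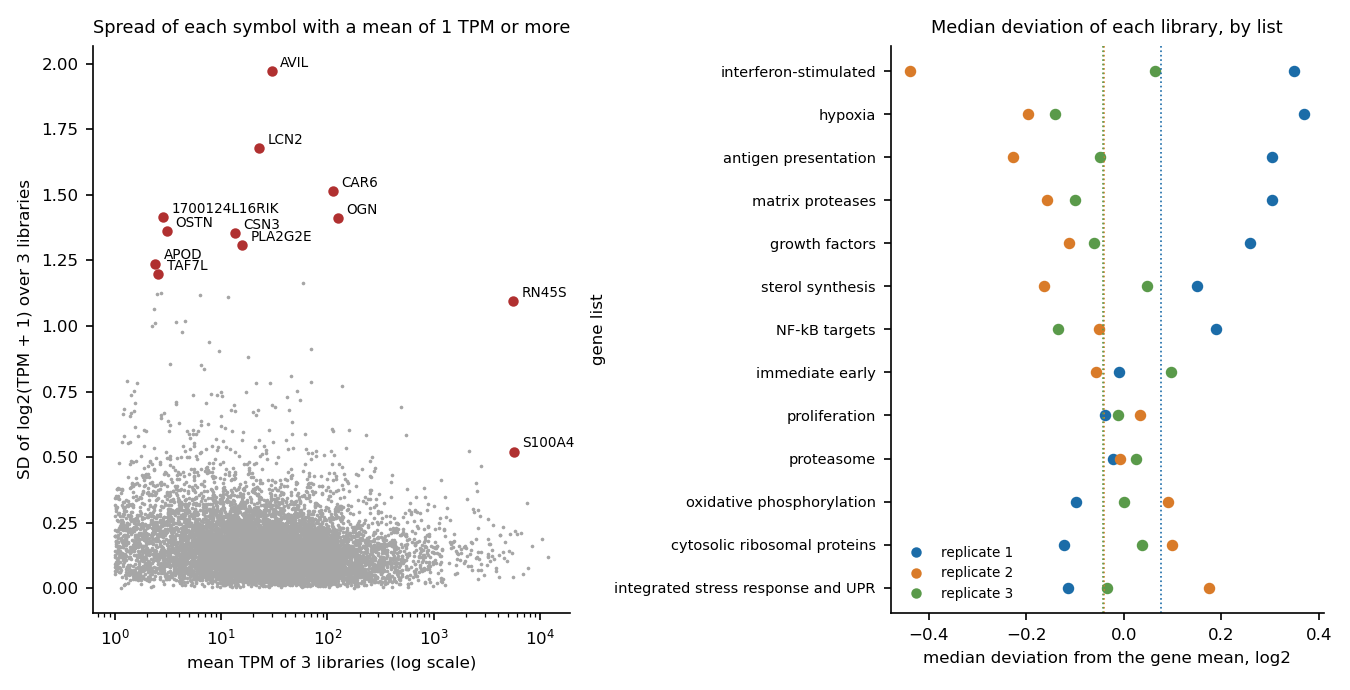
Left, SD of log2(TPM + 1) over 3 untreated libraries against mean TPM (log scale) for 10664 symbols, with the 10 most variable symbols, RN45S and S100A4 in red. Right, median deviation of each library from the gene mean by gene list, with dotted lines at the median over all 10664 symbols, where interferon-stimulated genes stand at 0.35, -0.44 and 0.06.

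A value of 0 in this table need not mean that a gene was silent. RPL26, a ribosomal protein gene that every cell uses (chr11:68901583-68906989), was listed at 0 in all 3 libraries, and so were LDHB, HSPB1 and MYL9. Further members at 0 in the ubiquitous lists included the proteasome genes PSMA8 and PSMB11 and the oxidative phosphorylation genes COX6B2, COX7B2 and COX8C, which are known as tissue-restricted forms. Genes with near-identical copies, such as ribosomal proteins and histones, can lose reads to their copies, and their levels are uncertain.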

How the data were processed

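Total RNA of CT26 cultures was sequenced in 12 libraries, 4 groups of 3 labelled biological replicates, and the 3 untreated libraries were used. Strand-specific mRNA libraries were made by the authors, who mapped reads on mm10 and counted them using STAR 2.7.3a within VIPER. Their own tests of gene counts were not used. Version and build are those of the submitters' processing notes. The deposited values are TPM scaled by the authors to 1000000 per library. The gene annotation and the step from counts to TPM are not given in the sources used here. TPM keep no read depth, so the depth of each library is unknown, no counting interval was computed, and precision is the spread between 3 samples.

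Python 3.11.15, pandas 2.3.3 and numpy 2.4.6 were used. From 23636 rows, 26 symbols turned into dates by a spreadsheet were left out. A gene was counted as present at 1 TPM or more in all 3 libraries, and spread is the SD of log2(TPM + 1). No test was run, because 1 group was described. Scripts were tested on simulated data. Positions came from GENCODE vM21 on GRCm38 (mm10), which matched 97.8% of symbols, and promoters from RefSeq on GRCm38.p6.

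Genes were named as the 25 most abundant, the 10 with the largest SD among means of at least 1 TPM, the ubiquitous genes listed at 0, and the leading and zero members of 63 gene lists and 71 ligand and receptor pairs. Some genes that this rule names are not reported here. The lists were chosen with earlier results of these data known. TPM thresholds, pseudocounts, scalings and omission of each replicate were tried as alternatives.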

Additional observations from a re-analysis of the deposited data

How the results depend on the processing

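Depth could not be read from TPM, so values near 0 carry no known limit of detection, and 3 replicates limit every SD. No paired analysis was possible because the results come from 1 group and no test. Leaving ribosomal protein genes out and rescaling changed the share of TPM in the 100 most abundant symbols from 31.7% to 24.3%. The lowest correlation between libraries, 0.988, was 0.995 with no filter on low values, and between 0.988 and 0.994 when 1 replicate was left out. The count of symbols spanning at least 2-fold, 136, was 65 among means of at least 10 TPM, 258 with a pseudocount of 0.1, and 30 to 113 when 1 replicate was left out, where fewer samples by construction span less. The median SD ran from 0.0861 (without replicate 1) to 0.135 across those omissions. The count of symbols at 1 TPM in all libraries ranged from 9992 at a threshold of 2 TPM to 10882 at 0.5 TPM, and the pairs with both genes present from 13 to 16. Of the 63 list counts, 4 changed by more than 1.5-fold at 2 TPM: the intestinal absorptive, endothelial, muscle and chemokine receptor lists fell to 1, 0, 1 and 1.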

Other observations

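Nuclear receptors reached 1 TPM in all 3 libraries in 23 of 47 cases (48.9%). This was near the 44.3% of all symbols and the 49.0% of protein-coding symbols. The retinoic acid receptor RARG led on average, at 63.1, 65.3 and 64.1 TPM. The liver X receptor NR1H2 had 69.2, 55.7 and 61.5 TPM and the glucocorticoid receptor NR3C1 54.96, 48.3 and 42.8 TPM. The progesterone receptor PGR, ESR2 and RORA were listed at 0. Of 12 Toll-like receptors, 3 reached it, TLR4 at 15.8, 10.1 and 12.9 TPM, TLR3 at 16.9, 7.58 and 11.9 TPM and TLR6 at 2.42, 1.13 and 1.11 TPM, and these were highest in replicate 1. Of 22 sterol synthesis genes, 20 reached it, led by MSMO1 at 446, 348 and 418 TPM, and 17 of these were lowest in replicate 2.

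By chromosome, between 34.4% (X) and 56.8% (chromosome 5) of protein-coding symbols reached 1 TPM in all 3 libraries. None of the 42 symbols on chromosome Y did so, and XIST had 0.00575, 0.0117 and 0.0218 TPM. Chromosome 7 had the lowest autosomal share at 39.7%.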
